A study of Drosophila melanogaster with 42 samples.

Results

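This account covers *fit*, *sxe2*, *Cyp4d21* (also called *sxe1*) and *takeout* (*to*), 4 genes known for sex-differential RNA in the fat body of the adult fly head, across every comparison of the series. They were chosen by name, and a probe carrying their gene number or sequence entry was looked for among the 12165 genes named on the array. *fit*, *sxe2* and *Cyp4d21* had 1 probe each. No probe was matched to *to*, so it is not analysed here, and the results concern 3 of the 4 genes.

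The fat body is the fly's counterpart of liver and adipose tissue, and in the head it lies around the brain and secretes proteins into the hemolymph. Its sex is set by the somatic sex hierarchy: in females TRA directs the splicing of *dsx* into its female form, DSXF, and in males, where TRA is absent, *dsx* gives the male form, DSXM, and *fru P1* transcripts give the FRUM proteins. The yolk protein genes *Yp1*, *Yp2* and *Yp3* are the textbook DSX targets of the fat body, activated by DSXF and repressed by DSXM. *fit* encodes a small secreted protein of female fat cells that acts in feeding. *sxe2* encodes a protein of the lipase family and *Cyp4d21* a cytochrome P450, both known as sex-differential RNAs of the head fat body, and *to* encodes a secreted carrier protein that is linked to male courtship and to feeding.

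Each of 42 arrays was hybridised with a pair of RNA samples in Cy3 and Cy5, and each value is a log2 ratio, so that it gives a difference between 2 samples and no level. All mutants were compared in heads, as follows. XX *tra* pseudomales (*tra1*/Df(3L)st-j7), XX *dsxD* pseudomales (*dsxD*,Sb/*dsxm+r15*), which make DSXM, and XX *dsx* nulls (*dsxd+r3*/*dsxm+r15*) were each set against Canton S females on 4 arrays, and XY *dsx* nulls of the same *dsx* alleles against Canton S males on 4. The XX mutants carried an X marked by *y*, *w* and a ubi-gfp transgene, P[w+cM,ubi-gfp], in the *tra* and *dsxD* pseudomales over a *w* X, and no such X is given for the XY nulls. *fru P1* mutant males were set against wild-type males on 8 head arrays, 4 with *fru4-40*/*frup14* against Canton S and 4 with *fruw12*/*frucham5* against w; Berlin, and on 6 arrays of dissected brain with ventral nerve cord (CNS), 3 for each combination. In the CNS each combination was taken as set against the same strain as in heads, although the titles of the CNS arrays name the other strain. Females were set against males in wild-type heads on 8 arrays, 4 of Canton S and 4 of Berlin, and in the Canton S CNS on 4. A sample held about 100 heads or about 20 CNS of adults whose age is labelled as 0–24 h, while the protocol gives 8–24 h. CNS RNA was amplified before labelling and head RNA was not. The mutants' chromosomes come from other stocks than the wild-type flies they were compared with, so that mutation and stock cannot be told apart. The methods describe the samples within a comparison as biologically independent, with 4 or more for each. In whole heads, fewer cells of a type and less RNA per cell cannot be told apart.

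Arrays carried values for between 5881 and 11900 of 16320 probes. On arrays of opposite dye orientation the log2 ratios correlated positively in heads of all comparisons by their median (0.21 to 0.57), but negatively in the CNS, at −0.52 in *fru P1* males and −0.41 between the sexes. The RNA measured by the *tra* probe was lower in *tra* pseudomales on all 3 arrays with a value. By the *fru* probes examined, *fru* RNA was lower in *fru* mutant heads on every array with a value. Not every *fru* probe was included in this check. By the probe with the most values, the mean log2 ratio was −1.23 in *fru4-40*/*frup14* heads and −0.47 in *fruw12*/*frucham5* heads. The yolk protein genes were higher in females than in males on all 8 wild-type head arrays, lower in *tra* and *dsxD* pseudomales than in females and higher in XY nulls than in males on all 4 arrays of each.

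*fit* had a value on 10 of 10 CNS arrays and on 29 of 32 head arrays. *sxe2* had a value on 1 of 10 CNS arrays and on 31 of 32 head arrays, and *Cyp4d21* on 1 of 10 CNS arrays and on 21 of 32 head arrays. A spot without a value failed the authors' filter on signal over background or was removed by them for poor quality. Which of these applied is not given, so a missing value need not mean little RNA. *sxe2* and *Cyp4d21* thus had values in heads and nearly none in the CNS, while *fit* had values in both. Of 12 fat body marker probes other than the yolk protein genes, 7 had a value on every CNS array and 0 lacked one on all of them. A value in the CNS was thus common among these probes. It was not so for all of them, as *Fbp1* had one on 28 of 32 head arrays and 3 of 10 CNS arrays.

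Wild-type female heads carried more *fit* RNA and less *sxe2* and *Cyp4d21* RNA than male heads. The log2 ratio of female over male for *fit* was 2.04, 1.91, 2.80 and 1.01 on the 4 Canton S arrays, and 3.45 and 3.80 on the 2 Berlin arrays with a value. All 6 values lay above 0, and both Berlin values lay above all of Canton S. The mean was 2.50 (SE 0.31, n = 6), a 5.66-fold difference with an adjusted p of 0.00296 by limma. *fit* rose in Canton S alone (mean 1.94, SE 0.25, adjusted p 0.0292), and with 2 values it was not tested in Berlin.

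For *sxe2*, the Canton S arrays gave −1.15, −0.64, 0.06 and −2.07, and the Berlin arrays −1.27, −0.78, −1.72 and −1.61. A single Canton S array lay just above 0 and the other 7 were below it. *sxe2* was 2.22-fold lower in female heads (log2 −1.15, SE 0.19, n = 8, adjusted p 0.00854). In Berlin alone the mean was −1.34 (SE 0.15, adjusted p 0.00352). In Canton S alone it was −0.95 (SE 0.29, adjusted p 0.344), which missed the threshold, and the difference between the strains, −0.39 (95% interval −1.23 to 0.44), was not past it either (adjusted p 0.854). The paper calls *sxe2* female-enriched where it lists genes known before. In its *dsx* analysis it describes the gene as apparently activated by DSXM in males and repressed by DSXF in females.

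*Cyp4d21* had 2 values in Canton S heads, −2.07 and −4.06, and 2 in Berlin heads, −1.67 and −2.53. All 4 were well below 0, with a mean of −2.58, or 5.98-fold less RNA in female heads. With a value on 4 of 8 arrays it fell below the filter of 75% of arrays and was not tested there. Where 2 values sufficed it passed (SE 0.33, adjusted p 0.0106).

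Both members tested in wild-type heads, *fit* and *sxe2*, passed the threshold of 0.15, where 9.08% of all 8135 probes tested did. The 3 yolk protein genes were female-enriched there on a larger scale, from 44.5-fold for *Yp3* (log2 5.48, SE 0.26) to 130-fold for *Yp2* (log2 7.02, SE 0.36). Of the 10 other fat body marker probes tested, 2 rose in females and 0 fell, with a median log2 of 0.28, and 4 of 10 neuronal marker probes fell, with a median of −0.22. Of 5 muscle marker probes 3 rose (median 0.26), and of 4 glial marker probes 2 fell (median −0.24). Their part in the members' values was not tested.

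In the dissected CNS *fit* was again female-enriched. Its log2 ratios of female over male were 1.62, 2.15, 2.18 and 2.01. All 4 were close together, with females in Cy5 on the first pair of arrays and in Cy3 on the second. The mean of 1.99 (SE 0.18, n = 4) is 3.97-fold, with an adjusted p of 0.000847, the smallest p of the 8307 probes tested in the CNS, of which 0.0602% passed. By the methods' t-test, run here two-sided and with Benjamini-Hochberg adjustment in place of the study's positive false discovery rate, and without limma's sharing of the spread between probes, its adjusted p was 1. The female excess of *fit* in the Canton S CNS and in Canton S heads differed by 0.05 (95% interval −0.62 to 0.72, adjusted p 0.999).

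The yolk protein genes went another way between the tissues. Their log2 ratios in the CNS averaged 0.34 to 0.78, none past the threshold, and the CNS less the head ratio was −5.33 for *Yp1*, −5.60 for *Yp2* and −4.57 for *Yp3* (adjusted p 2.68e-06, 3.13e-05 and 0.000244). Of 9 other fat body marker probes tested in the CNS, 0 passed, and their median was 0.03. *sxe2* and *Cyp4d21* had no value on any of the 4 arrays.

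**Figure D1:**
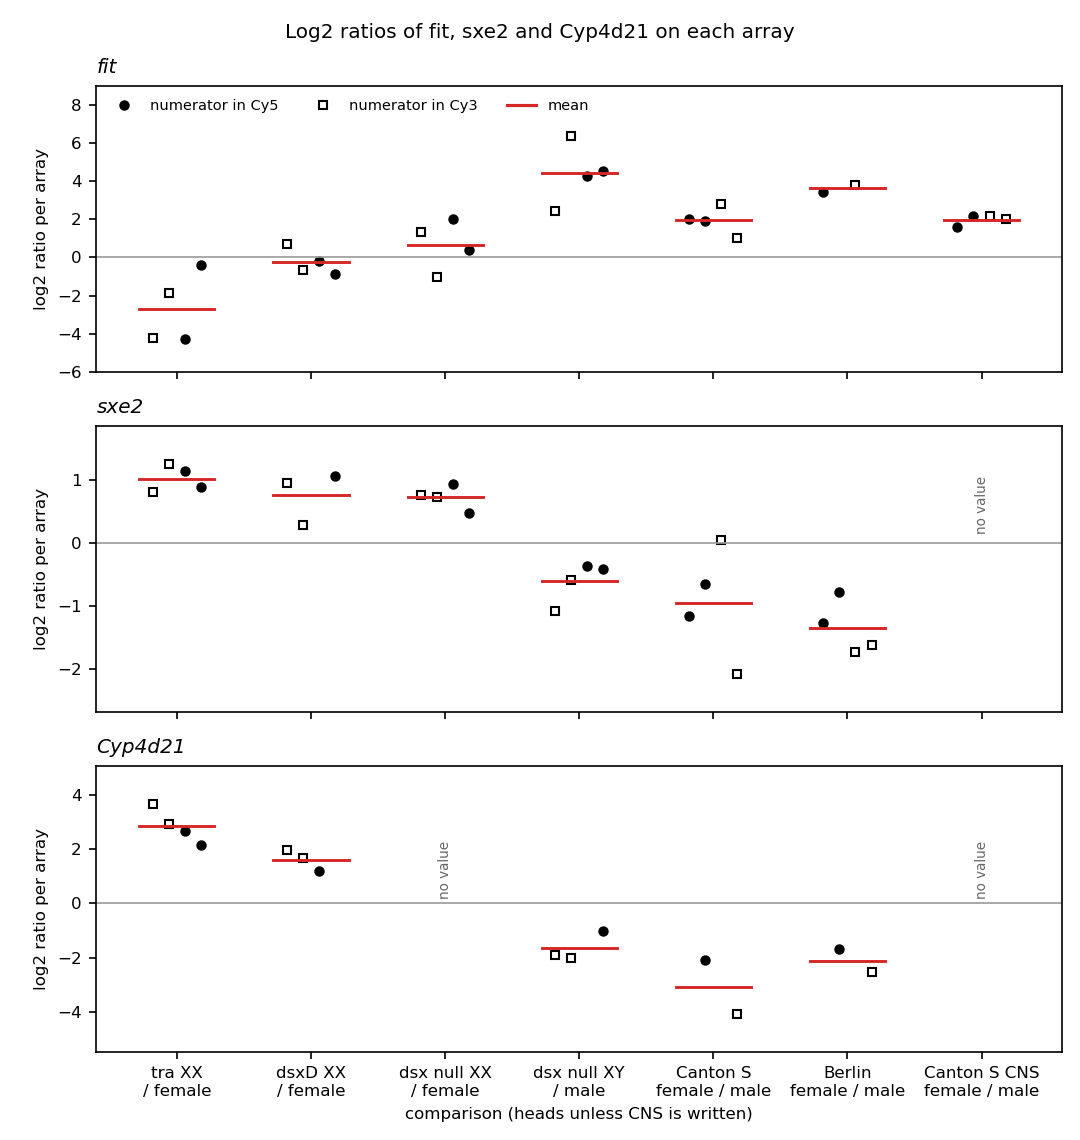
The log2 ratio of *fit*, *sxe2* and *Cyp4d21* on each array (y axis) for 7 comparisons (x axis), with the numerator sample in Cy5 as filled circles, in Cy3 as open squares, and the mean of 2 or more arrays as a red line. *sxe2* and *Cyp4d21* lie above 0 on every array with a value where an XX mutant was set against females, whereas *fit* runs from −4.28 in a *tra* head array to 6.38 in an XY *dsx* null array.

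In XX *tra* pseudomales the means of all 3 genes lay towards the male side. *fit* had log2 ratios of *tra* pseudomale over female of −4.25, −1.85, −4.28 and −0.38. All 4 were below 0, but they were spread widely, with one near 0. *fit* fell by 2.69 on the log2 scale (SE 0.56, n = 4, adjusted p 0.0256), a 6.45-fold difference. The paper gives the full name of *fit* as female-specific independent of *transformer*. The fall did not pass by the methods' t-test, as given below.

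*sxe2* gave 0.81, 1.26, 1.14 and 0.89, a narrow range above 0. It rose 2.03-fold in *tra* pseudomales (log2 1.02, SE 0.13, adjusted p 0.00185). *Cyp4d21* had ratios of 3.66, 2.92, 2.67 and 2.16, all far above 0. It rose 7.23-fold (log2 2.85, SE 0.21, adjusted p 0.000108), with the 23rd smallest p of 9070 probes. All 3 members passed, against 9.55% of the probes tested. By the methods' t-test, two-sided, the adjusted p was 0.425 for *fit*, 0.155 for *sxe2* and 0.166 for *Cyp4d21*, none of which passes. One-sided towards the male side, as in the methods for *tra* and *dsxD*, it was 0.351 for *fit*, and *sxe2* and *Cyp4d21* passed (adjusted p 0.111 and 0.119).

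Set against Canton S males through the wild-type arrays, the pseudomales' *fit* differed by −0.75 (95% interval −2.34 to 0.84, adjusted p 0.708) and their *sxe2* by 0.07 (−0.69 to 0.83, adjusted p 0.963), so that 0 of 2 members passed where 4.33% of probes did. The interval for *fit* is wide and includes large differences in either direction. *Cyp4d21* in males lay 3.06 above females on the 2 Canton S arrays with a value, beside the 2.85 of *tra* pseudomales, and was not tested. *Yp1* differed by −0.02 and *Yp2* by −1.22 (adjusted p 0.991 and 0.148), and *Yp3* by 0.87 (adjusted p 0.502). The call of *Yp2* was lost without any 1 of 7 of the 8 arrays (−1.56 to −0.89, adjusted p up to 0.337).

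In *dsxD* pseudomales, which are XX and make DSXM in place of DSXF, *sxe2* and *Cyp4d21* rose as in *tra* pseudomales and *fit* was not called. The log2 ratios of *fit* over females were 0.69, −0.67, −0.19 and −0.88. They lay on both sides of 0, with a mean of −0.26 (SE 0.25, n = 4, 95% interval −0.86 to 0.33, adjusted p 0.743). *sxe2* gave 0.95, 0.29 and 1.06 on 3 arrays and rose 1.70-fold (log2 0.77, SE 0.18, adjusted p 0.121).

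*Cyp4d21* gave 1.96, 1.67 and 1.20 on 3 arrays. All 3 lay above 0 and below every *tra* value. It rose 3.06-fold (log2 1.61, SE 0.17, adjusted p 0.0113). Of the 3 members tested, 2 passed, against 5.97% of probes. Without any of their 3 arrays with a value, *sxe2* and *Cyp4d21* had too few values left for a test, and neither passed by the methods' t-test, two-sided (adjusted p 0.484 and 0.292) or one-sided (0.437 and 0.265).

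*fit* in *dsxD* pseudomales lay above its level in Canton S males by 1.68 (SE 0.40, 95% interval 0.80 to 2.56), a 3.20-fold difference with an adjusted p of 0.105, where 2.61% of probes passed. This call was lost without any 1 of 5 of the 8 arrays, with adjusted p-values of up to 0.271. The yolk protein genes of the same flies differed from Canton S males by 0.24 to 0.96, none past the threshold, and were 17.4-fold to 54.2-fold lower than in females. The *fit* ratios of the *dsxD* and *tra* pseudomales differed by 2.43 (95% interval 0.73 to 4.13, unadjusted p 0.0095, adjusted p 0.565), which did not pass. Without *tra* array 4 the difference was 3.20 and passed (adjusted p 0.0785). That was 1 of 8 arrays left out in turn, and without each of the others it did not pass. From the XX *dsx* nulls described next, *dsxD* pseudomales differed by −0.94 in *fit* and by 0.04 in *sxe2* (adjusted p 0.546 and 0.974), where 5.75% of probes passed. Without the second XX null array the difference in *fit* was −1.50 and passed (adjusted p 0.147), the only 1 of 8 arrays whose loss changed the call.

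For *Cyp4d21* the *dsxD* effect was smaller than the *tra* effect by 1.24 (SE 0.33, 95% interval −1.97 to −0.51, adjusted p 0.388). With the replicate number as a block, which treats same-numbered arrays as pairs, the difference was −1.47 (SE 0.16) and passed, with an adjusted p of 0.0185. *dsxD* array 4 had no value, so *tra* array 4 had no pair under the block. Leaving out *tra* array 4 gave the same −1.47 (adjusted p 0.142), so these settings are not independent of each other. Of the 5 arrays that could be left out, it was the only 1 that changed the call. With dye orientation as a term the difference was −1.37 (adjusted p 0.0195). *sxe2* differed by −0.26 (95% interval −0.74 to 0.23, adjusted p 0.999).

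Without *dsx* function, *fit* rose strongly in XY heads and was not called in XX heads, while *sxe2* rose in XX heads and fell in XY heads. In XX nulls the log2 ratios of *fit* over females were 1.31, −1.01, 2.04 and 0.37. All but the second lay above 0, with a mean of 0.68 (SE 0.43, 95% interval −0.33 to 1.68, adjusted p 0.37). The second array decides this call, for without it the mean was 1.24 and passed (adjusted p 0.0305). In XY nulls the ratios over males were 2.43, 6.38, 4.26 and 4.56, of which the lowest lay within the range of the Canton S ratios of female over male and the other 3 above it. *fit* rose 21.2-fold (log2 4.41, SE 0.53, adjusted p 0.00288), the largest mean of any member in any of the 8 comparisons.

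Placed on one scale through the Canton S arrays, a comparison chosen after these values were seen, *fit* in XY nulls lay 2.47 above Canton S females (SE 0.66, 95% interval 1.01 to 3.93, adjusted p 0.064), where 8.35% of probes passed. In XX nulls *fit* lay 2.62 above Canton S males (SE 0.56, adjusted p 0.0163), where 21.5% passed. The first call was lost without XY array 4 (adjusted p 0.157) or Canton S array 4 (0.182). The yolk protein genes of XY nulls differed from females by −1.29 for *Yp1*, −0.25 for *Yp2* and −0.11 for *Yp3*, none past the threshold, so that *fit* and not the yolk protein genes lay above the female value there. The differences between *fit* and those genes were not tested.

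The effect of the null on *fit* differed between XX and XY flies by −3.73 (SE 0.79, 95% interval −5.48 to −1.98, adjusted p 0.118), where 0.751% of probes passed. With the replicate block the difference was the same but did not pass (SE 0.88, adjusted p 0.198), and it was lost without any 1 of 6 of the 8 arrays. Each null was set against its own sex, so this difference includes that between the wild-type sexes. Female over male, the latter was 1.94 in Canton S heads.

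*sxe2* moved the opposite way in the 2 sexes. Its ratios in XX nulls over females were 0.77, 0.74, 0.94 and 0.48, and in XY nulls over males −1.07, −0.58, −0.36 and −0.40. No array of one sex overlapped the other. *sxe2* rose 1.66-fold in XX nulls (log2 0.73, SE 0.11, adjusted p 0.00566) and fell by 0.60 on the log2 scale in XY nulls (SE 0.14, adjusted p 0.0346). The 2 effects differed by 1.33 (SE 0.18, 95% interval 0.94 to 1.73, adjusted p 0.0105), and the call held with the block (adjusted p 0.023) and without each array in turn. This difference, too, includes that between the wild-type sexes, which was −0.95 for female over male in Canton S heads. On the common scale, XX nulls differed from males by −0.22 (95% interval −1 to 0.55, adjusted p 0.732 by limma). XY nulls differed from females by 0.35 (−0.47 to 1.17, adjusted p 0.725). XX nulls thus differed in *sxe2* from females and XY nulls from males, while both intervals on the common scale are wide. That of XY nulls over females also includes the 0.73 of XX nulls, and whether the nulls share a level was not tested.

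*Cyp4d21* had no value on the 4 XX null arrays. In XY nulls it gave −1.89, −1.99 and −1.02 over males on 3 arrays, all below 0. It fell by 1.63 on the log2 scale (SE 0.21, adjusted p 0.00568), a 3.10-fold difference. In XY nulls the methods' t-test, two-sided, passed *fit* but neither *sxe2* nor *Cyp4d21* (adjusted p 0.177 and 0.175). By the 2 Canton S arrays the XY nulls would lie 1.43 above females, with males at 3.06, which was not tested.

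In XX nulls 1 of 2 members tested passed, *sxe2*, where 21.5% of probes did. In XY nulls all 3 passed, where 25.7% did. Fat body markers moved in the same heads: of the marker probes other than the yolk protein genes, 6 of 11 rose and 1 fell in XX nulls (median 0.59), and 7 of 10 rose and 0 fell in XY nulls (median 0.74). Among them *Lsp2*, a larval serum protein stored in fat body, rose 3.10-fold and *apolpp*, the lipoprotein precursor, 2.26-fold in XY nulls. In the same comparison 5 of 10 neuronal and 3 of 5 muscle marker probes fell. In XX nulls 3 of 10 neuronal and 2 of 5 muscle probes fell and 1 muscle probe rose. The photoreceptor probes, for *trp* and *inaD*, both rose in the *tra*, *dsxD* and both *dsx* null heads, with medians of 1.35 to 1.57. In the same XY null heads *fit* rose and *sxe2* and *Cyp4d21* fell, and in XX null heads *sxe2* rose. The part of the marker shifts in the members' values was not tested.

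**Figure D2:**
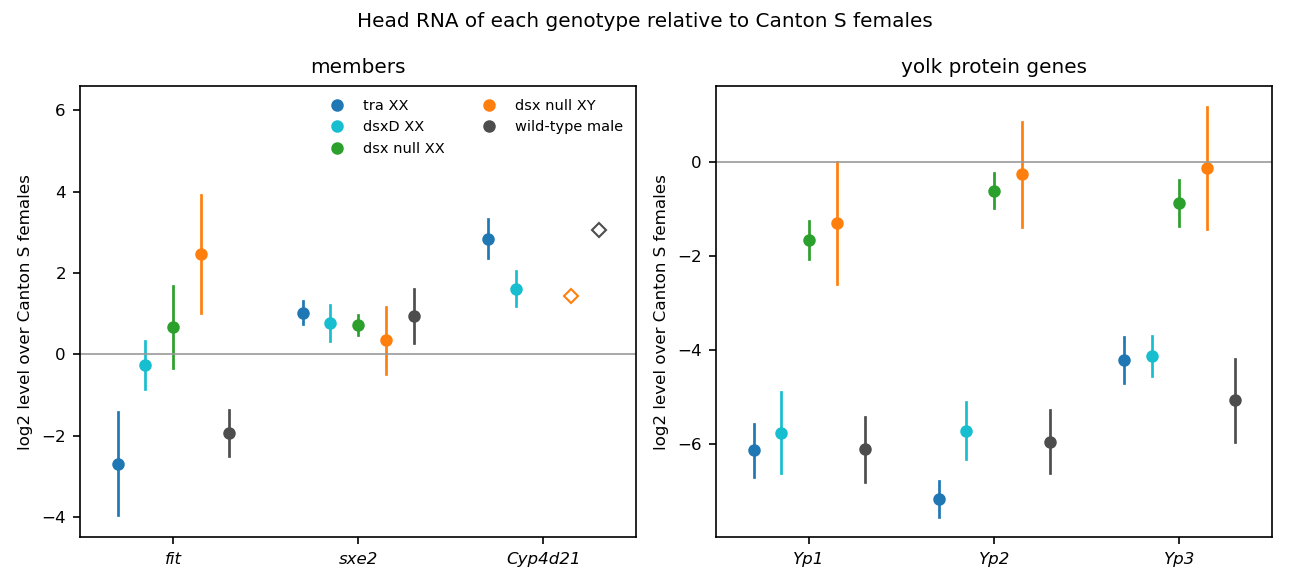
The log2 level of each gene relative to Canton S females (y axis) for *fit*, *sxe2* and *Cyp4d21* (left) and the 3 yolk protein genes (right), in *tra* XX, *dsxD* XX, *dsx* null XX, *dsx* null XY and wild-type male heads. Filled points carry 95% intervals from limma, and open diamonds are means without a test. *fit* of XY nulls lies at 2.47 and of *tra* pseudomales at −2.69, while the yolk protein genes of both nulls lie between −1.65 and −0.11 and those of *tra*, *dsxD* and males at −4.12 or below.

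*fru P1* is expressed in neurons, and its mutants were compared with wild-type males to find RNAs that depend on FRUM. *sxe2* was lower in the mutant heads of both allele combinations. Its log2 ratios of mutant over wild type were −0.65, −0.86, −0.31 and −0.38 with *fru4-40*/*frup14* and −0.61, −0.31, −0.51 and −0.55 with *fruw12*/*frucham5*. All 8 were below 0 and the combinations overlapped. *sxe2* fell by 0.52 on the log2 scale (SE 0.076, n = 8, adjusted p 0.0034), a 1.44-fold difference, and it passed in each combination alone, at −0.55 and −0.49 (adjusted p 0.0266 and 0.0196). The combinations differed by 0.05 (95% interval −0.27 to 0.38).

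*Cyp4d21* was lower with one combination. The *fru4-40*/*frup14* arrays gave −0.72, −0.86, −0.57 and −0.37, and the *fruw12*/*frucham5* arrays −0.28, 0.42 and 0.09. The lowest *fruw12*/*frucham5* value lay above the highest of the other combination. *Cyp4d21* fell by 0.63 in *fru4-40*/*frup14* (SE 0.11, adjusted p 0.0119), where 20.2% of probes passed, and averaged 0.08 in *fruw12*/*frucham5* (SE 0.15, adjusted p 0.808), where 17% passed. The difference between them, 0.71 (SE 0.19, 95% interval 0.29 to 1.13), passed with an adjusted p of 0.0361, among 23.9% of probes that did. Over all 7 values the mean of −0.33 did not pass (SE 0.15, adjusted p 0.255). Without the *fruw12*/*frucham5* array at 0.42 it was −0.45 and passed (adjusted p 0.0835).

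*fit* also differed between the combinations in heads, in the other direction. It gave −0.69, 0.74 and 1.12 with *fru4-40*/*frup14* and −0.78, −1.10, 0.05 and −1.03 with *fruw12*/*frucham5*. The groups overlapped. *fit* fell by 0.72 in *fruw12*/*frucham5* (SE 0.18, adjusted p 0.0525) and averaged 0.39 in *fru4-40*/*frup14* (SE 0.32, adjusted p 0.502). The difference of −1.11 (SE 0.41, 95% interval −2.01 to −0.21) had an adjusted p of 0.106, which rose to 0.171, 0.216 or 0.204 without *fruw12*/*frucham5* array 1, 2 or 4 in the order given. Over both, *fit* averaged −0.24 (SE 0.27, adjusted p 0.688), so that 1 of 3 members passed in the combined comparison, where 11.6% of probes did. Each combination was set against its own wild-type strain, so that allele and strain cannot be told apart. The paper adds that *fru4-40*/*frup14* lacks *fru P2* transcripts as well, and that both combinations may be hemizygous for genes near *fru*.

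In the CNS of *fru P1* males *fit* gave 1.76, 2.07 and 1.92 with *fru4-40*/*frup14* and 1.00, −0.86 and −0.82 with *fruw12*/*frucham5*. The first 3 are high and close together, and all 3 of the others lie below them. Over the 6 arrays the mean was 0.84 (SE 0.45, 95% interval −0.20 to 1.89), with an unadjusted p of 0.0993 and an adjusted p of 1, where 0.269% of probes passed. On these arrays all *fru4-40*/*frup14* samples were labelled in Cy3 and all *fruw12*/*frucham5* samples in Cy5, so that allele combination, strain and dye cannot be told apart. With each set of 3 arrays tested alone, a setting chosen after the values were seen, 5122 and 4322 probes passed for *fru4-40*/*frup14* and *fruw12*/*frucham5*, against 23 over all 6. *fit* on the Canton S CNS arrays with balanced dyes gave 1.62 and 2.15 with the numerator in Cy5 and 2.18 and 2.01 with it in Cy3. Those arrays compare the sexes, and the part of dye in the *fru* CNS values was not tested. The *fru* effect on *fit* in the CNS and in heads differed by 1.09 (95% interval −0.06 to 2.23, adjusted p 0.687), where 0.973% of probes passed. *sxe2* and *Cyp4d21* had 1 value each in the *fru* CNS, 0.03 and −0.62.

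**Figure D3:**
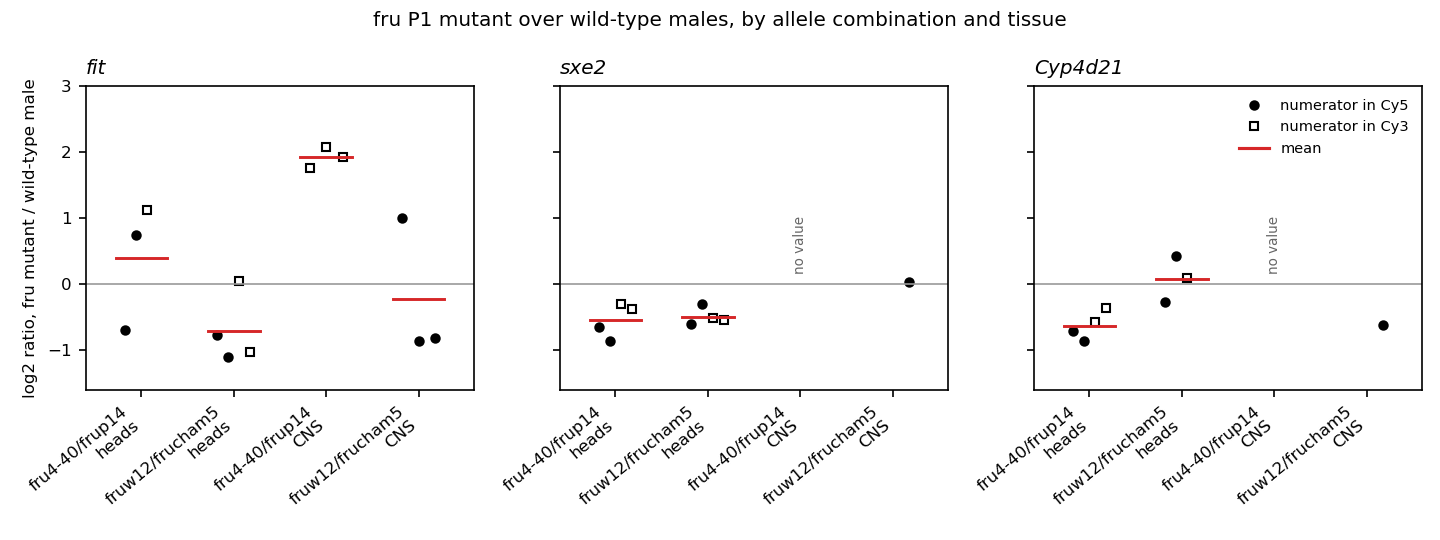
The log2 ratio of *fru P1* mutant over wild-type male (y axis) on each array for *fit*, *sxe2* and *Cyp4d21*, by allele combination and tissue (x axis), with the mutant in Cy5 as filled circles, in Cy3 as open squares, and means as red lines. *sxe2* lies below 0 on all 8 head arrays, and *fit* lies between 1.76 and 2.07 on the 3 CNS arrays of *fru4-40*/*frup14*.

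In the *fru* heads 2 of 10 fat body marker probes other than the yolk protein genes rose and 0 fell. They were those for *Fbp1* and *Fbp2*, fat body proteins of the late larva (3.62-fold and 2.14-fold, adjusted p 0.00439 and 0.00225). Of 9 neuronal marker probes 2 fell, both for *ChAT*, and of 5 muscle probes 2 rose. In *fru4-40*/*frup14* alone 3 of 11 fat body probes rose and 0 fell (median 0.03), and in *fruw12*/*frucham5* alone 2 of 11 rose and 3 fell (median −0.16). Their part in the members' values was not tested.

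Across arrays *sxe2* and *Cyp4d21* varied together. On the 21 arrays with both values their log2 ratios had an uncentred correlation of 0.92, the highest of *Cyp4d21* with any of 6438 probes compared. They had the same sign on 13 of 13 arrays other than those of *fru* mutants and on 5 of 8 *fru* arrays. *fit* ran against both, at −0.53 with *sxe2* on 29 arrays and −0.69 with *Cyp4d21* on 19. Its sign was opposite to that of *sxe2* on 16 of 21 arrays other than *fru* and on 4 of 8 *fru* arrays. To that of *Cyp4d21* it was opposite on 11 of 12 arrays other than *fru* and on 3 of 7 *fru* arrays. These correlations describe arrays that share comparisons and genotypes, and carry no test.

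**Figure D4:**
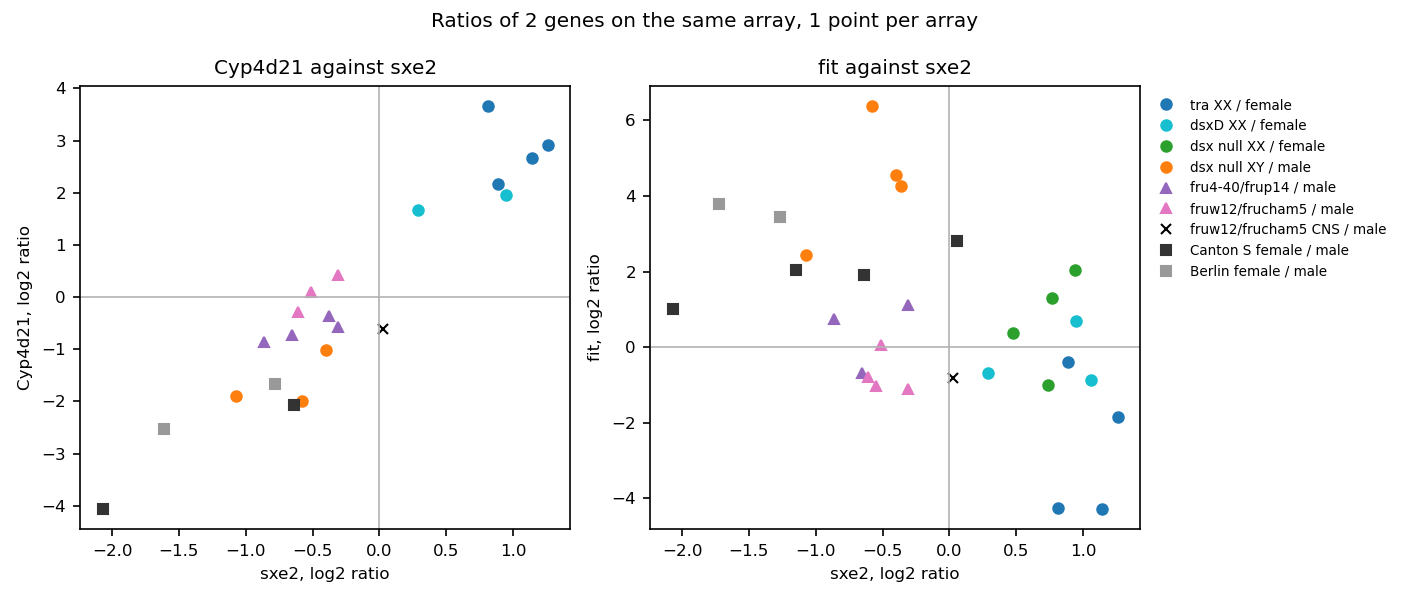
The log2 ratio of *Cyp4d21* (left) and *fit* (right) against that of *sxe2* on the same array, 1 point per array, coloured by comparison. The 21 points of *Cyp4d21* and *sxe2* run along a diagonal, and those of *fit* are spread widely at like values of *sxe2*.

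The probes most like *fit* were *rost* (0.78 on 33 arrays), *Yp3* (0.77 on 38) and *Lst* (0.77 on 39). *rost*, named for its part in muscle fusion, was 2.46-fold higher in female heads (adjusted p 4.57e-06) and 2.81-fold higher in XY nulls than in males (adjusted p 0.00139). *Lst*, which encodes the hormone Limostatin, was 1.25-fold higher in female heads (adjusted p 0.0644), 1.55-fold lower in *tra* pseudomales (adjusted p 0.0139) and 1.82-fold higher in XY nulls (adjusted p 0.01). In the CNS of the 2 sexes, where *fit* was 3.97-fold female-enriched, their log2 ratios were 0.17 and 0.38, not past the threshold.

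For *sxe2* the most similar probes were *speck* (0.83 on 29 arrays), CG6739 (0.79 on 25) and *Teh3* (0.69 on 32). *speck* encodes the arylalkylamine N-acetyltransferase that modifies amines such as dopamine, and it fell 1.45-fold in female heads (adjusted p 0.00549), rose 1.61-fold in *tra* pseudomales (adjusted p 0.0377) and fell 1.44-fold in XY nulls (adjusted p 0.0779). *Teh3*, for a sodium channel subunit, passed in none of the 8 comparisons. After *sxe2*, the probes most like *Cyp4d21* were CG6739 (0.88 on 18 arrays) and *speck* (0.86 on 19).

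With *to* itself not analysed, its family of secreted juvenile hormone binding-like proteins was counted, with 22 probes for 23 genes other than *to*. Of all probes tested, the share that passed was 9.08% in wild-type heads, 9.55% in *tra* and 5.97% in *dsxD* pseudomales, 21.5% in XX nulls, 25.7% in XY nulls and 11.6% in *fru* heads. In wild-type heads 2 of 15 tested rose in females and 1 fell, with a median log2 of 0.08 against 0 for all probes. In *tra* pseudomales 1 of 14 rose and 3 fell, in *dsxD* pseudomales 1 of 15 rose, in XX nulls 3 of 14 rose and 3 fell, and in XY nulls 6 of 14 rose and 1 fell. The median log2 in XY nulls was 0.15, against −0.03 for all probes tested. *dyw* (daywake), a family member with a part in daytime sleep, rose in all 4 of these comparisons: 3.72-fold in *tra* pseudomales, 2.45-fold in *dsxD* pseudomales, 4.42-fold in XX nulls and 2.85-fold in XY nulls (adjusted p 0.00146, 0.0701, 4.65e-05 and 0.000294). It did not pass between wild-type sexes. In *fru* heads 2 of 13 family probes rose and 0 fell: CG31207 (2.05-fold, adjusted p 0.00963) and *Jhbp5* (1.94-fold, adjusted p 0.101). The call of *Jhbp5* was lost without any 1 of the 4 *fru4-40*/*frup14* arrays (log2 0.79 to 0.86, adjusted p up to 0.197). *Jhbp5* rose 3.80-fold in *fru4-40*/*frup14* and was at −0.01 in *fruw12*/*frucham5*. *Jhbp7*, which neighbours *to* in the genome, passed in XY nulls alone of the 8 comparisons (log2 0.53, adjusted p 0.0643). In the CNS 0 of 12 family probes passed between the sexes and 0 of 12 in *fru* mutants, where 0.0602% and 0.269% of all probes did.

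Of the lipase family of *sxe2*, the probes that passed were 1 of 8 in wild-type heads (9.08% of all probes), 3 of 7 in *tra* (9.55%) and 1 of 8 in *dsxD* pseudomales (5.97%), 2 of 11 in XX nulls (21.5%), 2 of 7 in XY nulls (25.7%) and 0 of 5 in *fru* heads (11.6%). CG5966, a lipase of this family, was 1.95-fold lower in *tra* pseudomales (adjusted p 0.0358), 1.73-fold higher in XY nulls (adjusted p 0.014) and 2.92-fold lower in *dsxD* pseudomales (adjusted p 0.00366). CG6295 was 2.48-fold higher in XX nulls (adjusted p 0.0037).

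Of the *Cyp4* family of P450 enzymes, 17 probes other than that of *Cyp4d21* were tested in wild-type heads, of which 2 rose in females, *Cyp4d14* and *Cyp4e3*, and *Cyp4g15* fell (1.22-fold, 1.42-fold and 1.29-fold, adjusted p 0.0903, 0.123 and 0.014), where 9.08% of all probes passed. The calls of *Cyp4d14* and *Cyp4e3* were each lost without any 1 of 4 of the 8 arrays (adjusted p up to 0.2 and 0.258). In *tra* (9.55%) and in *dsxD* pseudomales (5.97%) 2 of 17 fell and 0 rose, in XX nulls (21.5%) 2 of 14 rose and 3 fell, in XY nulls (25.7%) 5 of 13 rose and 1 fell, and in *fru* heads (11.6%) 1 of 15 rose and 2 fell. *Cyp4p3* was lower in *tra* and *dsxD* pseudomales and in both nulls, by 1.45-fold to 1.90-fold. Its call in *tra* was lost without any 1 of 3 of the 4 arrays (log2 −0.67 to −0.36, adjusted p up to 0.336). The highest mean of another *Cyp4* probe in *tra* pseudomales was 0.36 on the log2 scale, where *Cyp4d21* was at 2.85. In the CNS 0 of 17 passed in either comparison.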

How the data were processed

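RNA of adult heads or dissected CNS was compared on 42 two-colour arrays of 65–69-base oligonucleotides with 16320 probes, of which 12913 were given 1 gene symbol here. Per the study's methods, arrays were scanned with GenePix and spots seen to be of poor quality were removed. A spot also needed over 75% of its pixels to be 1 SD above background. Intensities were lowess-normalised in Bioconductor, with versions not given in the sources used here. The deposited values are log2 ratios of channel 2 over channel 1, already turned for dye by the authors, as checked by the signs of the yolk protein genes, *dsx*, *tra* and *fru*. They were turned to mutant over wild type, or female over male. No depth or intensity was used, so the number of arrays limits the precision. For some *fru* arrays the titles and the strain labels of the channels conflict, and the strains were used.

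Probes with values on at least 75% of a comparison's arrays were tested for a mean log2 ratio other than 0 with limma 3.58.1 (moderated test) in R 4.3.3, and p-values were adjusted by Benjamini-Hochberg over all probes tested, with the threshold of 0.15 that was the study's default. For *fru P1* heads the study set a stricter cutoff and a fold-change limit, neither applied here. Calls in *fru* heads therefore need not meet the study's criteria. Errors are limma's moderated SE. Differences between comparisons were fitted over both sets of arrays, with no replicate block in the main fit. "Rose", "fell" and "passed" mean an adjusted p of at most 0.15. Likeness is the uncentred correlation over at least 12 shared arrays, with the 3 highest probes named. The tests were tried on simulated data first. Alternatives were the methods' t-test, two-sided with Benjamini-Hochberg adjustment (the study used positive false discovery rates, and one-tailed tests for *tra* and *dsxD*), a one-sided form of it for *tra* and *dsxD* towards the side opposite to the wild-type female over male mean (chosen after seeing the data), array medians subtracted, stricter and looser filters, dye or allele combination as a term, each strain or allele combination alone, the replicate number as a block, and each array left out. The members, lists and tests were chosen with earlier results of these data known.

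Whether replicate numbers pair arrays was read from the correlation of same-numbered deviations from the group means. It exceeded 0.1 for every pair in *tra* pseudomales over males (0.11 to 0.33), *dsxD* less *tra* (0.18 to 0.42), *dsxD* less *dsx* null (0.19 to 0.40) and XX less XY nulls (0.27 to 0.43). Same-numbered arrays there also share their dye orientation, and other arrays of the same orientation correlated alike (medians 0.22 to 0.42). Pairing and dye were thus not told apart. The main values of these differences were fitted without the block, which was run as an alternative.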

Additional observations from a re-analysis of the deposited data

Results flagged for a closer look

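The results below are those in which the effect on a member differed between groups by a test of the difference itself. Each was past the threshold of 0.15 by limma without a replicate block. *fit* of *dsxD* pseudomales was higher than in Canton S males by 1.68 on the log2 scale (adjusted p 0.105), while it was not called against females. The effect of the *dsx* null on *sxe2* differed between XX and XY heads by 1.33 (adjusted p 0.0105), with XX higher on all 4 arrays than XY on any, and its effect on *fit* differed by −3.73 (adjusted p 0.118). The difference in *fit* did not pass with the replicate block. Both differences include that between the wild-type sexes, as each null was set against its own sex. *Cyp4d21* differed between *fruw12*/*frucham5* and *fru4-40*/*frup14* heads by 0.71 (adjusted p 0.0361) and *fit* by −1.11 (adjusted p 0.106). In the comparisons chosen after seeing the data, *fit* was 2.62 higher in XX *dsx* nulls than in Canton S males (adjusted p 0.0163) and 2.47 higher in XY nulls than in Canton S females (adjusted p 0.064). Dixon's test at 95% found 0 outlying arrays in the 16 sets of member values of 4 to 10 arrays, where chance gives about 1 in 20.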

How the results depend on the processing

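Of 215 values of the members and counts of probes recomputed under other settings, 169 kept their direction, their side of the threshold and, for counts, a size within 1.5 times. Where the others moved, the cause was not tested beyond what the setting itself changes (fewer arrays or values). The methods' t-test, run two-sided on the same values with Benjamini-Hochberg adjustment, passed 0 probes in the CNS between the sexes (5 by limma), 128 in *tra* (866), 171 in *dsxD* (5.97% of probes by limma), 938 in XX nulls (1845), 1329 in XY nulls (2113) and 10 in the *fru* CNS (23). By it *fit* lost its call in the CNS (1.99, adjusted p 1) and in *tra* (−2.69, 0.425), *sxe2* in *tra* (1.02, 0.155), *dsxD* (0.77, 0.484) and XY nulls (−0.60, 0.177), and *Cyp4d21* in *tra* (2.85, 0.166), *dsxD* (1.61, 0.292) and XY nulls (−1.63, 0.175). The one-sided form, chosen after seeing the data, passed 148 probes in *tra* and 119 in *dsxD*, and by it *fit* in *tra* (−2.69, 0.351) and *sxe2* and *Cyp4d21* in *dsxD* (0.77, 0.437 and 1.61, 0.265) lost their calls. With dye orientation as a term 29 probes passed in the CNS, 1470 in *tra*, 1940 in *dsxD*, 3011 in XX nulls and 4147 in XY nulls, and *Cyp4d21* in *dsxD* less *tra* passed (−1.37). In the CNS 3 probes passed with array medians subtracted and 2 with a value required on every array. With 2 values sufficing, *Cyp4d21* passed in wild-type heads (−2.58). Canton S heads alone gave 35 probes and *sxe2* −0.95 (adjusted p 0.344), and Berlin heads alone 346, against 739 over both.

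In *fru* heads (855) 1588 probes passed with the allele combination as a term, 1460 in *fru4-40*/*frup14* alone and 1608 in *fruw12*/*frucham5* alone. *Cyp4d21* was then −0.28 (adjusted p 0.0937), −0.63 and 0.08, *fit* was 0.39 and −0.72 in the combinations alone, and *Jhbp5* −0.01 in *fruw12*/*frucham5*. In the *fru* CNS 478 probes passed with the term. The settings chosen after seeing the data, each combination alone, gave 5122 probes and *fit* 1.92 (adjusted p 0.0101) in *fru4-40*/*frup14*, and 4322 probes and *fit* −0.23 in *fruw12*/*frucham5*. With the replicate number as a block, *Cyp4d21* in *dsxD* less *tra* was −1.47 and passed, and *fit* in XX less XY nulls was −3.73 and did not (adjusted p 0.198), and the block changed no other call of a member.

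With 1 array at a time left out, the number of probes passing lay between 319 and 1116 for wild-type heads, 2 and 14 for the wild-type CNS, 470 and 821 for *tra*, 229 and 535 for *dsxD*, 884 and 1532 for XX nulls, 1031 and 1692 for XY nulls, 542 and 761 for *fru* heads, and 4 and 9 for the *fru* CNS. *fit* in XX nulls over females ran from 0.22 to 1.24, and *Cyp4d21* in *fru* heads from −0.45 to −0.24. For *fit*, CNS less head ran from −0.26 to 0.34, *dsxD* over males from 1.36 to 1.99, *dsxD* less *tra* from 1.90 to 3.20, *dsxD* less null from −1.50 to −0.49, XX less XY nulls from −4.39 to −3.07, *fruw12*/*frucham5* less *fru4-40*/*frup14* from −1.37 to −0.98, and XY nulls over females from 1.81 to 3.12. For *sxe2*, *tra* over males ran from −0.27 to 0.44, *dsxD* over males from −0.52 to 0.19, *dsxD* less null from −0.05 to 0.10, *fruw12*/*frucham5* less *fru4-40*/*frup14* from −0.05 to 0.13, XX nulls over males from −0.56 to 0.15, and XY nulls over females from −0.02 to 0.69. *Cyp4d21* in *dsxD* less *tra* ran from −1.47 to −0.97. Calls of *fit* and *sxe2* in *tra*, of *sxe2* in both nulls, wild-type and *fru* heads, and of *fit* in XY nulls and the CNS held without each array in turn. A member left with values on too few arrays gave no value under such a setting, nor under a value required on every array where it lacks one.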
